A study of Homo sapiens with 6 samples.

Results

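The 41 genes described here encode the subunits of 3 families of Polycomb complexes, namely Polycomb repressive complex 1 (PRC1), Polycomb repressive complex 2 (PRC2) and the Polycomb repressive deubiquitinase PR-DUB. They were taken by name from the 27238 rows of an expression table, and each name stood on 1 row. No cut on the measured values was used, but earlier results of these data were known when the genes were chosen. The table comes from QBC-939, an established human cholangiocarcinoma (bile duct cancer) line, in which BMI1, a subunit of PRC1, was knocked down. Control cells received a scrambled shRNA and treated cells an shRNA against Bmi1, 3 libraries each, and both were taken after 48 h. The design text calls the control reagent an siRNA as well, and it describes the 3 libraries of a group as separate transfections of the 1 line, so p-values measure the spread between transfections. Whether more than 1 shRNA sequence against Bmi1 was used is not stated in the labels, so effects of the reagent other than on BMI1 cannot be told apart from those of losing BMI1. The question was how the mRNA profile changes when BMI1 is lowered, and the genes below make up the machinery to which BMI1 belongs.

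PRC1 is a ubiquitin ligase that places ubiquitin on histone H2A. Its catalytic RING protein, RING1 or RNF2, pairs with 1 protein of the PCGF family, and that PCGF protein sets which form of the complex is built. BMI1 and PCGF2 nucleate canonical PRC1, which also holds a CBX, a PHC and an SCM protein and is brought to chromatin by the histone methyl mark that the CBX protein reads. The other PCGF proteins nucleate variant PRC1, which holds RYBP or YAF2 in place of a CBX protein. PRC2 places that methyl mark on histone H3 through EZH1 or EZH2, and PR-DUB, built on the enzyme BAP1, takes ubiquitin off histone H2A again. Polycomb complexes keep developmental regulators and cell cycle inhibitors silent, and BMI1 and EZH2 are both studied for high levels in tumours.

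All values are FPKM, which count the fragments of a gene relative to its transcript length and to the mapped fragments of the library, so levels of different genes can be set side by side per length. The depth of the libraries is unknown, and no counting error can be attached to a value. The FPKM of a library summed to between 332910 and 360371. Between libraries of 1 group log2(FPKM + 1) correlated across genes with r from 0.983 to 0.986, against 0.948 to 0.960 between groups. All 8 listed markers of biliary and other epithelium were present, their FPKM summing to 1810 to 1971 in control libraries and 1541 to 1774 with Bmi1 shRNA, where the keratins KRT8, KRT18 and KRT19 outrank KRT7. Markers of fat, fibroblasts and endothelium stayed under 1 FPKM where they had a row. Only 1 of 4 listed for fat, 2 of 4 for fibroblasts and 2 of 4 for endothelium had a row. The 2 leukocyte markers with a row summed to 11.1 to 12.0 and 6.78 to 8.39 FPKM, and the 3 hepatocyte markers with a row to 5.84 to 7.01 and 17.6 to 19.7 FPKM, nearly all of it from CD68 and TTR. ALB and PTPRC, which define hepatocytes and leukocytes, have no row. The part of these markers in the results below was not tested.

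The promoters of members that moved in opposite directions are shown first, because these pairs do the same job in their complex. RING1 and RNF2 are the alternative catalytic subunits of PRC1 and EZH1 and EZH2 those of PRC2, while SUZ12 is the scaffold of PRC2. RNF2, EZH2 and SUZ12 were higher with Bmi1 shRNA, and RING1 and EZH1 were lower. Each line holds the 250 bases before the RefSeq start site on the gene's own strand in GRCh38.p14. The coordinates are chr6:33208250-33208499 (forward) for RING1, chr1:185045308-185045557 (forward) for RNF2 and chr17:42745041-42745290 (reverse) for EZH1. Those of the upstream of 2 EZH2 promoters are chr7:148884292-148884541 (reverse), and those of SUZ12 are chr17:31936757-31937006 (forward). Capitals mark the letters TTCCCGC, a core of the E2F site, and CCAAT, the core of the NF-Y site, each searched on both strands (GCGGGAA and ATTGG on the other), and no letters of the 2 motifs overlap in the lines shown.
RING1: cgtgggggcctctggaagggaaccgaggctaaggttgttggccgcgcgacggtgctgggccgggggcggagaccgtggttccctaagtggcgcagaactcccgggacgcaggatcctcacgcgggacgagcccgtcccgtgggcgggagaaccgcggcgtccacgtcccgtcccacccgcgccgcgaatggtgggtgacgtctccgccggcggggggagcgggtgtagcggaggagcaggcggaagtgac
RNF2: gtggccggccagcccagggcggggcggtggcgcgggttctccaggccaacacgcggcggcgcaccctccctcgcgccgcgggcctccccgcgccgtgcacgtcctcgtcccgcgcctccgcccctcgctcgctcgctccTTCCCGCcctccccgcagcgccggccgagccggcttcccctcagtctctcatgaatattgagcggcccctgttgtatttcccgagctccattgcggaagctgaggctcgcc
EZH1: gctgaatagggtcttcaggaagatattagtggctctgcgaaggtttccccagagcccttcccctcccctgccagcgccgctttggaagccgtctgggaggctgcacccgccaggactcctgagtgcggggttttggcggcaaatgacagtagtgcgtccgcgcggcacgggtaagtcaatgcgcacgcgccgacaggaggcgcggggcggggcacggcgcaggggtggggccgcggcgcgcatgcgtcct
EZH2: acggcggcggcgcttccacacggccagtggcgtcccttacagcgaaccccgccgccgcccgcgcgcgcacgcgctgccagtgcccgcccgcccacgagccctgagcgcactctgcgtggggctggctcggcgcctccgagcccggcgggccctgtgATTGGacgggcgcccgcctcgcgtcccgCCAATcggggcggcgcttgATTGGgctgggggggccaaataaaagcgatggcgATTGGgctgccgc
SUZ12: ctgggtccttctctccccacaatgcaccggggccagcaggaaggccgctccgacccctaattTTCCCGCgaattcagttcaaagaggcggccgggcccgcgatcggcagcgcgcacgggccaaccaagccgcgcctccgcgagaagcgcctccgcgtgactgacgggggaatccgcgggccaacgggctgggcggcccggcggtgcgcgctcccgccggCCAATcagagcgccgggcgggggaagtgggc

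The 5 promoters are alike in base composition, with a GC content of 72.8% for RING1, 74.4% for RNF2, 67.6% for EZH1, 75.6% for EZH2 and 72.8% for SUZ12. Promoters were found for 37 of the 41 genes, 57 in all, with a median GC content of 72.4% against 58% over all 35116 promoters of the table. The E2F letters stand once in RNF2 and once in SUZ12, and in none of RING1, EZH1 and EZH2. NF-Y letters occur 4 times in the EZH2 promoter shown, not at all in the other EZH2 promoter, and once in SUZ12. Over all members, E2F letters were in 8.77% of promoters (RNF2, SUZ12, SCML1, SCMH1 and PHF19) against 5.52% of all promoters, and NF-Y letters in 35.1% against 32%. The E-box letters CACGTG were in 14% of member promoters against 6.34%, the ETS letters CCGGAAG in 15.8% against 8.52%, the YY1 letters AAGATGG in 5.26% against 3.7% and the CRE letters TGACGTCA in 1.75% against 1.65%, both strands searched. A match of letters is a description and not a binding site, and members that rose, fell or did neither are among those with E2F letters.

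BMI1 was lower in every library given its shRNA. In the 3 control libraries it stood at 6.65, 5.34 and 6.09 FPKM, and in the 3 with the shRNA at 1.49, 1.19 and 2.65 FPKM, with no overlap. The mean was 29.5% of control, and the log2 fold change of FPKM + 1 was -1.37 (SE 0.19; limma, adjusted p = 0.00162). Permuting the 6 values exactly, two-sided, gave p = 0.1, the smallest possible with 3 against 3. The third shRNA library kept the most BMI1 mRNA. BMI1 lies on chromosome 10 at 22321211 to 22331484, forward strand, in GRCh38 (GENCODE 29) and shares 1000 exonic bases with the readthrough gene COMMD3-BMI1, which has no row.

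Over the whole set, 38 of the 41 genes had a mean of at least 1 FPKM and were tested. PHC3, YAF2 and MBD5 were not. With Bmi1 shRNA 18 of the 38 fell, 7 rose and 13 did not pass (limma, Benjamini-Hochberg adjusted p under 0.05 over all tested rows). That is 65.8% of the members, beside 57.1% of all 11016 tested rows. Lower calls made up 28.5% of all rows and higher calls 28.6%. The 2 groups did not overlap for 25 of the 38 members, 65.8%, against 65.4% of all rows, a share near the background. The median log2 fold change was -0.20 for the members and -0.02 for all rows. Among single subunits the largest falls after BMI1 in the deposited values were BCOR, SCMH1 and ASXL1, and the largest rises MTF2, RNF2 and PCGF6.

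The direction of change went with the base composition of the transcript, in these genes as in the table at large. The 7 members that rose have transcripts of 37.6% to 45.9% GC (longest coding transcript in GENCODE 29). Of the 18 that fell, 16 have 50.2% to 63.9% GC, and the exceptions are BMI1 (39.1%) and ASXL2 (41.7%). Spearman's rho between fold change and GC content was -0.474 over the 38 members and -0.473 over 10225 tested rows with a known transcript, both across genes, which share the same 6 libraries. When the trend with GC content and length was removed from each library, 10 members were lower and 3 higher, 34.2% of the 38, beside 39.7% of all rows in that fit (20.5% lower, 19.1% higher). The median of the members was then 0.03. Of the 25 members called in the deposited values, 6 were called in the same direction with the trend removed (BMI1, SCMH1, RING1, PCGF1, BCOR and ASXL2), 3 in the opposite one (CBX2, SCML1 and BCORL1) and 16 not at all. When the medians over a gene's transcripts stood for its GC content and length, 7 of the 25 kept their direction and call (BMI1, PHC2, PCGF1, BCOR, EZH1, EZH2 and ASXL2) and SCML1, EED and EPOP were called in the opposite one. RING1 (log2 fold change -0.09; limma, adjusted p = 0.212) and SCMH1 (-0.17; adjusted p = 0.0537) were then not called. BMI1, PCGF1, BCOR and ASXL2 were thus lower in both versions. The fold change with the trend removed is given below beside each member, from the longest transcript unless medians are named. Whether the trend comes from the libraries or from the cells was not tested.

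**Figure D1:**
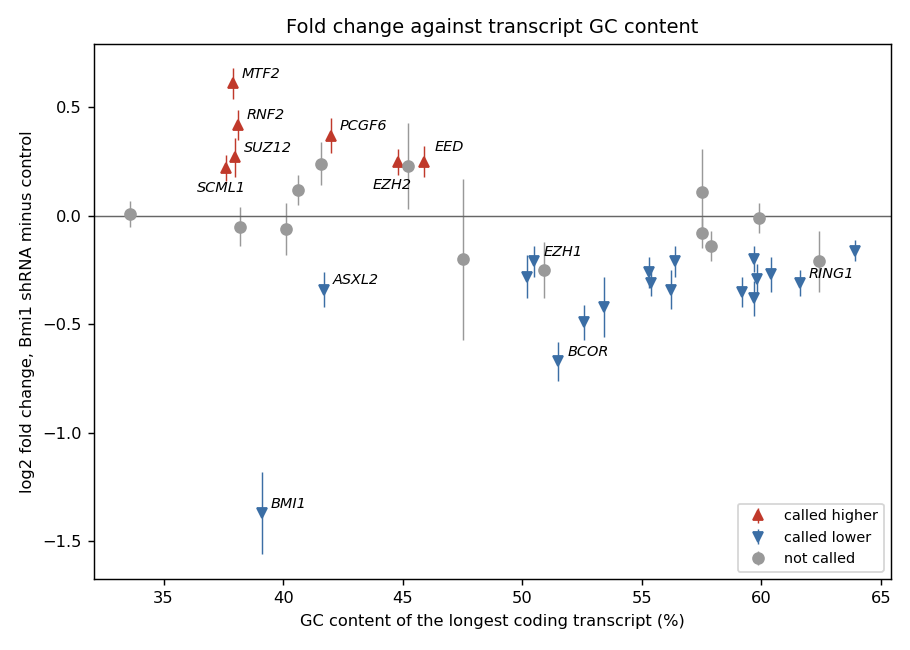
Log2 fold change of FPKM + 1 (y axis, with its standard error) of the 38 tested members against the GC content in percent of the longest coding transcript (x axis), by call. The 7 higher members lie at 37.6% to 45.9% GC and 16 of the 18 lower ones at 50.2% or more, with BMI1 and ASXL2 as the lower members below that.

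**Figure D2:**
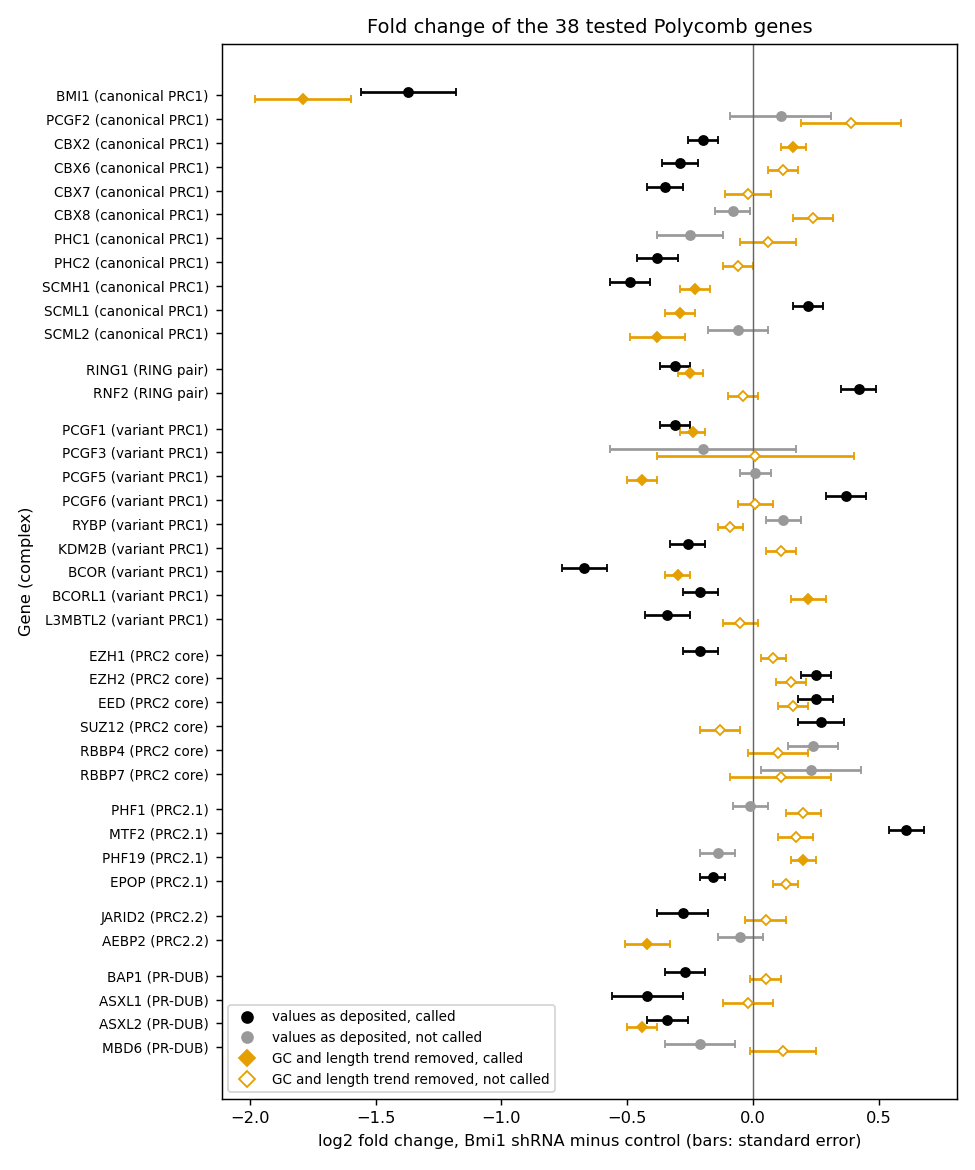
Log2 fold change of FPKM + 1 (x axis, Bmi1 shRNA minus control, bars for the standard error) of the 38 tested members by complex, in the values as deposited (circles, black where called) and with the GC content and length trend taken out (diamonds, filled where called). In the deposited values BMI1 at -1.37 lies apart, all others sit between -0.67 and 0.61, and many diamonds lie on the other side of 0 from their circle.

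The make-up of the PCGF family differed between the groups. BMI1 made up 19.0%, 18.0% and 15.8% of the summed FPKM of the 6 PCGF genes in control libraries and 5.98%, 3.62% and 8.71% with the shRNA. PCGF2, the closest paralog of BMI1 and the alternative core of canonical PRC1, stood at 10.9, 10.1 and 15.1 FPKM in control libraries. With the shRNA it was at 10.2, 16.5 and 12.8 FPKM, so that the groups overlapped and the log2 fold change of 0.11 (SE 0.20) did not pass (limma, adjusted p = 0.645). Its share of the whole pool was 34.8% ± 3.98 in control and 44.4% ± 4.90 with the shRNA (SD, n = 3 each), a share whose denominator includes the lowered BMI1. Among the 5 PCGF genes other than BMI1 it held 38.6%, 41.5% and 46.5% in control libraries and 43.7%, 51.9% and 46.1% with the shRNA, and these ranges overlapped. BMI1 and PCGF2 together held 52.4% ± 2.34 of the pool in control and 50.5% ± 3.29 with the shRNA, and those ranges overlapped. Reads of PCGF2 cannot be told from those of CISD3 on the other strand where the 2 genes overlap, as the use of strand in counting is not given.

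The PCGF proteins of variant PRC1 did not move together. PCGF6, the core of the form that holds the E2F6 and MGA factors, had 1.57, 1.13 and 1.37 FPKM in control libraries and 1.97, 2.05 and 2.12 FPKM with the shRNA. It rose 1.5-fold, by 0.37 on the log2 scale (SE 0.08; limma, adjusted p = 0.00965), but its fold change was 0.01 with the trend removed. PCGF1, the core of the form that carries KDM2B and BCOR, went the other way, from 9.15, 9.29 and 8.96 FPKM to 7.29, 7.46 and 6.78 FPKM. Its log2 fold change was -0.31 (SE 0.06; adjusted p = 0.00454), and -0.24 with the trend removed (adjusted p = 0.0159). PCGF5 was nearly level, at 2.59, 2.32 and 2.62 FPKM in control and 2.56, 2.56 and 2.48 FPKM with the shRNA, where its log2 fold change was 0.01 and where removal of the trend gave -0.44 (adjusted p = 0.00293). PCGF3 varied more within the groups than between them, at 4.08, 1.49 and 4.41 against 1.35, 3.20 and 3.58 FPKM. The summed FPKM of the 6 genes overlapped between groups (34.4 ± 4.47 and 29.4 ± 4.12, SD, n = 3 each).

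**Figure D3:**
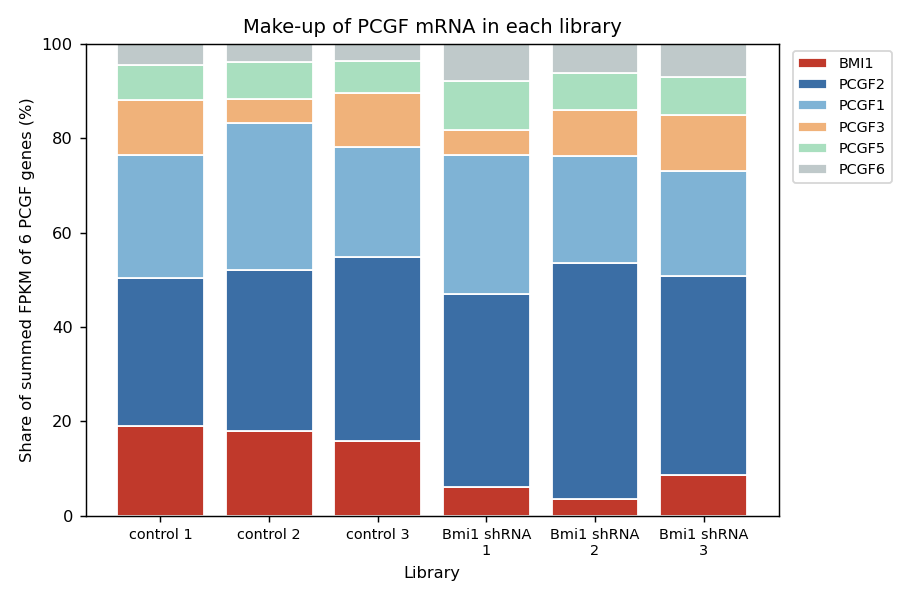
Share in percent (y axis) of each PCGF gene in the summed FPKM of the 6 PCGF genes, for each of the 6 libraries (x axis). BMI1 takes 15.8% to 19.0% in control libraries and 3.62% to 8.71% with Bmi1 shRNA, and PCGF2 is the largest share in all 6.

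In the deposited values the balance of the catalytic pair of PRC1 was nearer to RNF2 with the shRNA, a difference that was much smaller once the trend was removed. RING1, the more abundant of the pair per length, stood at 33.0, 32.9 and 33.6 FPKM in control libraries and at 25.1, 26.3 and 28.6 FPKM with the shRNA. It fell by 0.31 on the log2 scale (SE 0.06; limma, adjusted p = 0.0064). RNF2, also called RING1B, stood at 3.80, 3.39 and 3.62 FPKM and then at 5.15, 4.84 and 5.43 FPKM, and it rose by 0.42 (SE 0.07; adjusted p = 0.00258). Neither gene overlapped between groups. The ratio of RING1 to RNF2 thus went from 9.23 ± 0.498 to 5.2 ± 0.291 (SD, n = 3 each), and RNF2 from 9.79% ± 0.481 to 16.2% ± 0.773 of the pair. The transcripts of the pair lie far apart in base composition, at 61.6% GC for RING1 and 38.1% for RNF2, although their promoters shown above are alike. With the trend removed RING1 was still lower (-0.25; adjusted p = 0.0101) and RNF2 was not called (-0.04; adjusted p = 0.674). The log2 difference of the ratio was -0.72 in the deposited values, -0.21 with the trend removed and -0.15 with medians, where neither gene was called.

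Of the 11 tested genes of canonical PRC1, 6 fell, 1 rose and 4 did not pass, with a median log2 fold change of -0.25. The called share was 63.6%, beside 57.1% of all tested rows. Beside BMI1 those that fell were the chromodomain genes CBX2, CBX6 and CBX7, the Polyhomeotic gene PHC2 and SCMH1. After the trend was removed 4 were lower and 1 higher, and the median was -0.02. Summed over the 12 genes of the class, FPKM went from 86.5 ± 1.52 to 69.9 ± 4.59 (SD, n = 3 each), and without BMI1 from 80.5 ± 1.06 to 68.1 ± 4.05.

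CBX proteins read the methyl mark of PRC2 through their chromodomain. CBX7 had 2.35, 2.55 and 2.70 FPKM in control libraries and 1.86, 1.87 and 1.57 FPKM with the shRNA, a log2 fold change of -0.35 (SE 0.07; limma, adjusted p = 0.00743) that was -0.02 with the trend removed. CBX6 fell from 10.0 ± 0.454 to 8.03 ± 0.511 FPKM and CBX2 from 5.62 ± 0.333 to 4.75 ± 0.183 FPKM. CBX8 did not pass, at 9.58 ± 0.823 and 8.98 ± 0.417 FPKM. CBX2 was instead called higher with the trend removed (0.16; adjusted p = 0.0426), and CBX6 had 0.12 (adjusted p = 0.137); with medians CBX2 was not called (-0.06). CBX2 also lost its call in the fits that left out control 2, control 3, shRNA 1 or shRNA 2 (highest adjusted p = 0.104). These 4 genes kept much the same proportions, CBX8 at 34.5% ± 2.98 and 38.2% ± 0.886 of their sum being the largest change in share, while CBX7 was the 1 whose share did not overlap between groups (9.13% ± 0.690 and 7.53% ± 0.940).

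PHC proteins join PRC1 complexes to each other through their SAM domain. PHC2 was the main PHC gene, with 90.8% ± 1.3 of the sum of the 3 in control libraries. It stood at 29.1, 27.6 and 27.1 FPKM in control and at 19.5, 20.8 and 23.3 FPKM with the shRNA, a log2 fold change of -0.38 (SE 0.08; limma, adjusted p = 0.00593). With the trend removed it was -0.06, and with medians -0.21 and called lower (adjusted p = 0.046). PHC3 had 0.963, 0.885 and 0.809 FPKM and then 1.07, 0.943 and 1.14 FPKM, and the groups overlapped. PHC1 (1.94 ± 0.411 and 1.47 ± 0.327 FPKM) did not pass, and its last 1105 exonic bases are shared with M6PR on the other strand.

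SCM proteins are the substoichiometric partners of canonical PRC1. SCMH1 stood at 7.79, 8.14 and 7.23 FPKM in control libraries and at 5.32, 4.71 and 5.60 FPKM with the shRNA. It fell by 0.49 on the log2 scale (SE 0.08; limma, adjusted p = 0.00253), and by 0.23 with the trend removed (adjusted p = 0.0306). SCML1 was low, at 1.05 ± 0.0278 and 1.39 ± 0.104 FPKM, and its rise of 0.22 turned to -0.29 with the trend removed (adjusted p = 0.0136). SCML1 lost its call when any control library or the first shRNA library was left out (highest adjusted p = 0.0726). SCML2 (1.18 ± 0.0768 and 1.12 ± 0.333 FPKM) did not pass and was called lower with the trend removed (-0.38; adjusted p = 0.0352).

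**Figure D4:**
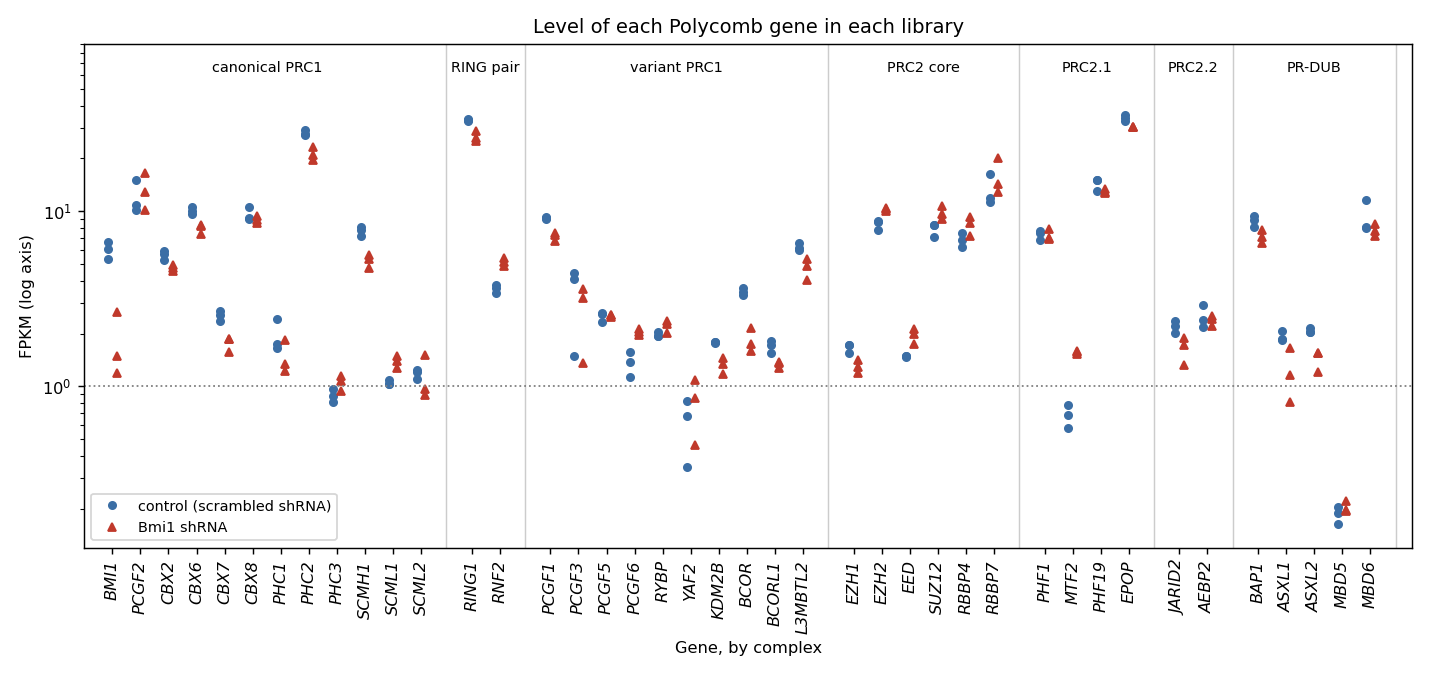
FPKM of the 41 members in each of the 6 libraries (logarithmic axis), control and Bmi1 shRNA libraries side by side, grouped by complex, with a dotted line at 1 FPKM. RING1, EPOP and PHC2 have the highest means, MBD5 is the lowest at 0.164 to 0.220 FPKM, and BMI1 shows the widest gap between the groups.

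Of the 9 tested genes of variant PRC1, 5 fell (PCGF1, KDM2B, BCOR, BCORL1 and L3MBTL2), 1 rose (PCGF6) and 3 did not pass. Calls thus took 66.7% of them, beside 57.1% of all tested rows. The median log2 fold change was -0.20, and -0.05 with the trend removed, when 3 were lower and 1 higher. The genes that fell include PCGF1 and 3 subunits of its form, KDM2B, BCOR and BCORL1. With the trend removed PCGF1 and BCOR were still lower, KDM2B was not called (0.11) and BCORL1 was called higher (0.22). SKP1, a subunit of the PCGF1 form outside the 41 members, was called higher in the deposited values (0.54). KDM2B is the zinc finger protein that takes this form to unmethylated CpG islands, and BCOR or its paralog BCORL1 links it to PCGF1.

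In the deposited values BCOR had the largest fall of any member after BMI1. Control libraries held 3.32, 3.63 and 3.46 FPKM and shRNA libraries 1.74, 1.58 and 2.14 FPKM, a mean of 0.525 times control. The log2 fold change was -0.67 (SE 0.09; limma, adjusted p = 0.00129), and -0.30 with the trend removed (adjusted p = 0.00737). In that fit ASXL2 and PCGF5 (-0.44 each), AEBP2 (-0.42) and SCML2 (-0.38) lay below BCOR. With medians SCML2 (-0.48), AEBP2 (-0.47) and PCGF5 (-0.39) lay below BCOR (-0.37). BCORL1 stood at 1.72, 1.82 and 1.54 FPKM in control and at 1.37, 1.28 and 1.35 FPKM with the shRNA. Its log2 fold change of -0.21 (adjusted p = 0.0359) was lost in 5 of the 6 fits that left out a library, the exception being control replicate 3 (highest adjusted p = 0.111), and it was 0.22 and called higher with the trend removed (adjusted p = 0.0435; not called with medians, adjusted p = 0.0575). The ratio of BCOR to BCORL1 went from 2.06 ± 0.167 to 1.36 ± 0.196 (SD, n = 3 each) with no overlap. KDM2B fell from 1.79 ± 0.00990 to 1.32 ± 0.142 FPKM, a log2 fold change of -0.26 that became 0.11 once the trend was taken out.

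L3MBTL2, a protein with malignant brain tumour repeats found in the PCGF6 form, moved against PCGF6. Its values were 6.03, 6.60 and 6.14 FPKM in control libraries and 4.86, 4.06 and 5.32 FPKM with the shRNA. The log2 fold change was -0.34 (SE 0.09; limma, adjusted p = 0.02), -0.05 with the trend removed, and not called without control replicate 2 (-0.31; adjusted p = 0.0655). RYBP, the shared subunit that replaces CBX proteins, stood at 2.03, 1.94 and 1.93 FPKM and then at 2.28, 2.01 and 2.36 FPKM, and did not pass (adjusted p = 0.181). Its paralog YAF2 lay at 0.348, 0.677 and 0.829 FPKM in control and 0.461, 0.862 and 1.08 FPKM with the shRNA, too low to be tested.

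PRC2 did not move in 1 direction. Of its 12 genes, all tested, 4 rose (EZH2, EED, SUZ12 and MTF2), 3 fell (EZH1, EPOP and JARID2) and 5 did not pass, with a median log2 fold change of 0.11. Those calls made up 58.3% of the genes, near the 57.1% of all tested rows. The 4 that rose include the enzyme EZH2 and both of its obligate partners. In the fit without the trend 1 gene of PRC2 was higher (PHF19) and 1 lower (AEBP2), and the median was 0.12. No gene of the 6-gene core was called in that fit. With medians over transcripts, 2 genes of PRC2 were higher and 3 lower, among them 1 higher (EZH2) and 2 lower (EZH1 and EED) of the core. The share of all rows called with medians is not given, so these counts have no background beside them.

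In the core, EZH2 had 8.82, 8.72 and 7.79 FPKM in control libraries and 10.4, 10.0 and 10.3 FPKM with the shRNA. It rose 1.21-fold, by 0.25 on the log2 scale (SE 0.06; limma, adjusted p = 0.0147). That call held without any 1 library and was lost with libraries scaled to 1 total (adjusted p = 0.0584) and with the trend removed (0.15; adjusted p = 0.0887), but not with medians over transcripts (0.19; adjusted p = 0.0324). EZH1, its less active paralog of resting cells, had 1.54, 1.71 and 1.73 FPKM and then 1.29, 1.19 and 1.41 FPKM, a log2 fold change of -0.21 (SE 0.07; adjusted p = 0.0373). The share of EZH2 in the pair went from 83.5% ± 1.66 to 88.8% ± 0.735 (SD, n = 3 each), with every shRNA library above every control library. EZH1 had a log2 fold change of 0.08 after removal of the trend and of -0.21, still called lower, with medians (adjusted p = 0.0336). EZH1 lost its call when control 2, control 3, shRNA 1 or shRNA 2 was left out (highest adjusted p = 0.107).

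EED reads the mark that PRC2 makes, and SUZ12 holds the complex together. EED rose 1.32-fold, from 1.48 ± 0.00609 to 1.96 ± 0.196 FPKM (limma, adjusted p = 0.0208), and SUZ12 rose 1.23-fold, from 7.95 ± 0.712 to 9.81 ± 0.840 FPKM (adjusted p = 0.0359). Each call ended in 5 of the 6 fits that left out 1 library, for EED all but that without Bmi1 shRNA replicate 3 (adjusted p up to 0.0651) and for SUZ12 all but that without Bmi1 shRNA replicate 2 (up to 0.102). With the trend removed EED had 0.16 and SUZ12 -0.13, neither called, but with medians over transcripts EED was called lower (-0.31; adjusted p = 0.00913). Reads of SUZ12 may be shared with its partial copy SUZ12P1, which had 1.24 ± 0.253 and 1.32 ± 0.131 FPKM.

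The histone-binding proteins RBBP4 and RBBP7 serve PRC2 and also other chromatin complexes. RBBP4 stood at 6.80, 6.28 and 7.51 FPKM in control libraries and at 9.21, 8.51 and 7.17 FPKM with the shRNA, and did not pass (limma, adjusted p = 0.0885) unless Bmi1 shRNA replicate 3 was left out (0.33; adjusted p = 0.0253). RBBP7 stood at 11.9, 11.3 and 16.3 FPKM and then at 20.2, 12.8 and 14.2 FPKM, with overlap (adjusted p = 0.349). Summed over the 6 core genes, FPKM was 38.9, 37.9 and 41.9 in control and 52.9, 43.5 and 45.6 with the shRNA, 1.20 times control, to which RBBP7 added the most.

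PRC2.1 is the form of PRC2 that holds a Polycomb-like protein (PHF1, MTF2 or PHF19) and may hold EPOP. In the deposited values MTF2 changed more than any other member that rose, from 0.576, 0.686 and 0.781 FPKM to 1.59, 1.52 and 1.56 FPKM. The ratio of means was 2.28 and the log2 fold change 0.61 (SE 0.07; limma, adjusted p = 0.000858), on a scale that understates low genes. Its control mean was under 1 FPKM, so that it entered the test through the shRNA libraries alone; with no filter on low values its adjusted p was 0.00382. With the trend removed its fold change was 0.17 (adjusted p = 0.0941).

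PHF19 stood at 13.1, 15 and 15 FPKM in control libraries and at 12.7, 12.9 and 13.3 FPKM with the shRNA, and the lowest control library lay inside the shRNA range. Its log2 fold change was -0.14 (SE 0.07; limma, adjusted p = 0.125), -0.23 and called lower with libraries scaled to 1 total (adjusted p = 0.0448), -0.20 and called lower without control replicate 1 (adjusted p = 0.0397), and 0.20 and called higher with the trend removed (adjusted p = 0.0262), but -0.07 and not called with medians. PHF1 was level at 7.32 ± 0.453 and 7.29 ± 0.545 FPKM. EPOP, the most abundant of the 4 per length, fell from 34.0 ± 1.34 to 30.2 ± 0.155 FPKM (-0.16; adjusted p = 0.0338). EPOP kept its call in 1 of the 6 fits that left out a library, that without control replicate 1 (adjusted p up to 0.105), and had 0.13 with the trend removed and 0.18, called higher, with medians (adjusted p = 0.0469).

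PRC2.2 holds JARID2 and AEBP2, which bind ubiquitinated histone H2A. JARID2 fell from 2.19 ± 0.171 to 1.64 ± 0.287 FPKM (-0.28; limma, adjusted p = 0.0474), and AEBP2 did not pass at 2.50 ± 0.389 and 2.38 ± 0.155 FPKM. The call of JARID2 ended in every fit that left out 1 library but that without Bmi1 shRNA replicate 3 (adjusted p up to 0.126). With the trend removed JARID2 had 0.05 and AEBP2 -0.42, the latter called lower (adjusted p = 0.0135). The PRC2.2 genes made up 7.71% ± 1.22 of the summed FPKM of both forms in control and 7.16% ± 0.313 with the shRNA, so the balance of the 2 forms overlapped between groups.

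In PR-DUB, 3 of the 4 tested genes fell (BAP1, ASXL1 and ASXL2), none rose and MBD6 did not pass, with a median log2 fold change of -0.30. This share of 75% rests on 4 genes and stands beside 57.1% of all tested rows called. Without the trend 1 was lower (ASXL2), and the median was 0.02. BAP1, the deubiquitinase, fell from 8.83 ± 0.633 to 7.17 ± 0.613 FPKM (log2 fold change -0.27; limma, adjusted p = 0.0289), and had 0.05 with the trend removed. BAP1 lost its call when the first or second library of either group was left out (highest adjusted p = 0.091).

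ASXL proteins bind BAP1 and switch on its activity. ASXL1 stood at 1.87, 2.08 and 1.84 FPKM in control libraries and at 1.16, 0.818 and 1.65 FPKM with the shRNA, where the third shRNA library lay closest to control. Its log2 fold change was -0.42 (SE 0.14; limma, adjusted p = 0.0368), and -0.02 with the trend removed. Its call remained in 1 of the 6 fits that left out a library, that without Bmi1 shRNA replicate 3 (adjusted p up to 0.102). ASXL2 stood at 2.03, 2.15 and 2.03 FPKM and then at 1.55, 1.21 and 1.54 FPKM, and its fall of -0.34 (SE 0.08; adjusted p = 0.0103) was -0.44 with the trend removed (adjusted p = 0.00211). It is the 1 member besides BMI1 that fell with a transcript under 50% GC.

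MBD5 and MBD6 are accessory subunits of PR-DUB. MBD6 had 8.05, 11.5 and 8.08 FPKM in control libraries and 7.19, 8.43 and 7.67 FPKM with the shRNA, with overlap (limma, adjusted p = 0.243). MBD5 was barely present at 0.188, 0.164 and 0.205 FPKM and then 0.220, 0.193 and 0.197 FPKM, and was not tested.

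For pairs of paralogs that can replace each other, the ratio of the 2 genes was taken in each library as a difference of log2(FPKM + 1). A factor common to both then cancels for well expressed genes, but not fully for genes near 1 FPKM. Among 11 pairs, 6 had ratios that did not overlap between groups, 54.5%, where 65.4% of single rows do not overlap. BMI1/PCGF2 changed most, by -1.49 on the log2 scale. It is counted among the 6 although it holds the gene that the shRNA targets, so its direction follows from the design. Next came MTF2/PHF19 (0.74), RING1/RNF2 (-0.72), PHC2/PHC3 (-0.50), EZH1/EZH2 (-0.47) and BCOR/BCORL1 (-0.46). For each of the 6 an exact permutation test (two-sided) returned p = 0.1, the lower limit with 3 against 3 (0.183 after Benjamini-Hochberg adjustment over the 11 pairs), so none can pass a threshold of 0.05 in this design. The pairs PCGF3/PCGF5 (exact p = 0.5), RYBP/YAF2 (0.9), RBBP4/RBBP7 (1), ASXL1/ASXL2 (0.4) and MBD5/MBD6 (0.3) overlapped. Removal of the trend left differences of -0.03 for MTF2/PHF19 (0.24 with medians), -0.21 for RING1/RNF2 (-0.15) and -0.07 for EZH1/EZH2 (-0.40). BMI1/PCGF2 had -2.18 (-2.30) and BCOR/BCORL1 -0.53 (-0.56). The genes of such a pair can differ widely in transcript GC content (MTF2 37.9% and PHF19 57.9%, PHC3 37.9% and PHC2 59.7%), and their ratio then keeps the trend.

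**Figure D5:**
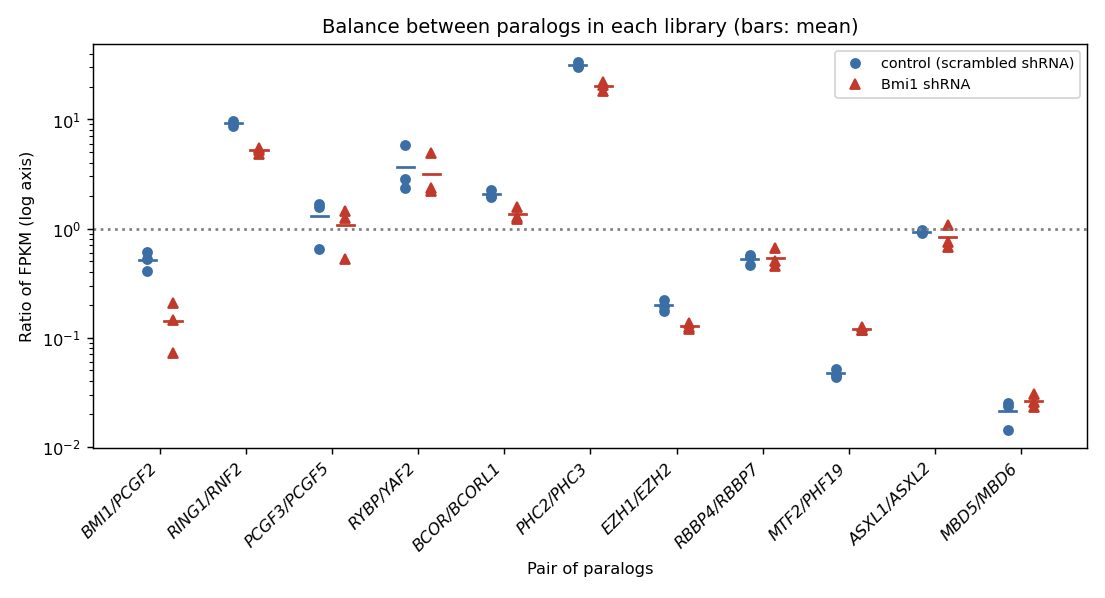
Ratio of FPKM of the 2 genes of each of 11 paralog pairs (logarithmic y axis) in each library, with bars at the group means and a dotted line at a ratio of 1. The 2 groups are apart for 6 pairs, of which MTF2/PHF19 alone moved up, and they overlap for the other 5.

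The summed level of each class is given with no test, as members are not replicates of a complex, and differences between classes were not tested. The sum of canonical PRC1 with the shRNA was 0.808 times control, that of variant PRC1 0.831 times and that of PR-DUB 0.8 times, each with no overlap between groups. The PRC2 core was at 1.20 times control, PRC2.1 at 0.923 times and PRC2.2 at 0.856 times, again each with no overlap. Among all tested rows, 65.4% had no overlap between groups. The class sums are of deposited values and keep the trend with GC content. Median transcript GC content was 55.1% for canonical PRC1, 49.5% for variant PRC1, 53.4% for PR-DUB and 45% for the PRC2 core. With the trend removed their median log2 fold changes were -0.02, -0.05, 0.02 and 0.11 in that order. With medians over transcripts they were -0.17, -0.06, -0.18 and -0.04. Less mRNA per cell and fewer cells that express a gene cannot be told apart in these bulk libraries. The third shRNA library, which kept the most BMI1, was nearest to control for 12 of the 18 members that fell, 66.7%, with BMI1 itself counted among the 12. The same library was nearest to control for 64.6% of all 3143 rows called lower, a share near that of the members. Of the 7 that rose, Bmi1 shRNA replicate 2 was nearest to control for 5, 71.4%, against 25.1% of the 3152 rows called higher, a difference that was not tested.

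Of 35 further genes of the Polycomb pathway, 32 had 1 row and 27 were tested. Among them 13 fell, 4 rose and 10 did not pass, so that 63% were called beside 57.1% of all rows, with a median log2 fold change of -0.25, while 6 were lower and 3 higher without the trend (20.5% and 19.1% of all rows). CBX3, a heterochromatin protein found in the PCGF6 form, rose from 15.6, 13.9 and 14.3 FPKM to 34.2, 36.0 and 33.6 FPKM (log2 fold change 1.19, SE 0.06; limma, adjusted p = 0.000212). The deacetylase HDAC2 of the same form rose from 2.96 ± 0.0698 to 5.94 ± 0.242 FPKM and SKP1, of the PCGF1 form, from 8 ± 1.86 to 11.9 ± 0.968 FPKM. The call of SKP1 (log2 fold change 0.54) ended without control replicate 2 (0.46) or 3 (0.45) and without Bmi1 shRNA replicate 2 (0.49) or 3 (0.53). USP16, another H2A deubiquitinase, rose from 0.863 ± 0.0799 to 2.29 ± 0.316 FPKM (0.82; adjusted p = 0.000691), and like MTF2 it entered the test through its shRNA libraries. Of 5 tested partners of PR-DUB 3 fell, a small count that stands beside 57.1% of all tested rows called and 28.5% called lower. HCFC1 went from 14.1 ± 0.926 to 8.89 ± 1.32 FPKM (-0.62; adjusted p = 0.00344), FOXK2 from 9.70 ± 0.627 to 6.10 ± 0.356 FPKM (-0.59) and FOXK1 from 4.99 ± 0.402 to 3.38 ± 0.332 FPKM (-0.45). OGT (-0.07; adjusted p = 0.631) and KDM1B (-0.19; adjusted p = 0.115) did not pass. The DNA-binding factor YY1 fell from 4.70 ± 0.114 to 3.73 ± 0.260 FPKM, its PhoRC relative SFMBT1 from 4.33 ± 0.133 to 2.98 ± 0.0378 FPKM, and the H3 demethylase KDM6B from 4.44 ± 0.604 to 2.76 ± 0.145 FPKM. With the trend removed CBX3 (0.66), HDAC2 (0.51), USP16 (0.33), FOXK2 (-0.21) and SFMBT1 (-0.35) were called in the same direction, and HCFC1 (-0.17), FOXK1 (0.01), YY1 (0.01), KDM6B (-0.12) and SKP1 (0.41) were not called. Also lower in that fit, and named after their values were seen, were WDR5 (-0.26), TFDP1 (-0.37), CSNK2A2 (-0.40) and KDM1B (-0.45). With medians YY1 (-0.47) and KDM6B (-0.36) were called lower. The PRC2 partners LCOR and LCORL were under 1 FPKM and not tested. MGA of the PCGF6 form was nearly absent, with means of 0.0331 FPKM in control libraries and 0.0304 FPKM with the shRNA, and was not tested either.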

How the data were processed

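Poly(A) RNA was sequenced as paired-end reads per the labels' protocols, which also name adipose material that none of the samples is. The authors deposited 1 table of FPKM per gene and library. Bowtie 0.12.2, HISAT2 2.0 and StringTie 1.3.0 are named with no role per the submitters' processing notes, as is mm8, a mouse build, although the line is human; the build, annotation and use of strand are thus not settled. Columns named Sc and Sh were read as scrambled and shRNA, numbered like the sample titles.

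The 11016 of 27238 rows whose mean reached 1 FPKM were tested on log2(FPKM + 1) with limma 3.58.1 in R 4.3.3, with group as the sole term, a trend in the variance and Benjamini-Hochberg adjustment, called at adjusted p under 0.05. Fold changes on this scale understate the change of low genes. GC content and length came from GENCODE 29 (GRCh38) and were known for 92.8% of tested rows. Their trend was removed with natural splines of 5 degrees of freedom each, fitted to each library's deviation from the gene mean. Paralog ratios were tested as differences of log2(FPKM + 1) by exact permutation (SciPy 1.17.1). Promoters are those of RefSeq, cut to the 250 bases before the start. Low values held no common step between libraries (at most 3.55% of low rows at the commonest ratio), so reads could not be recovered and depth is unknown. The fit was tested on simulated data.

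Alternatives covered the pseudocount (0.1), the filter, scaling, library weights, the variance prior, a replicate block, GC content and length, and each library left out. The share of all rows called is given for the deposited values and for the trend removed with the longest transcript. It is not given for the other alternatives, so their counts have no background beside them. Members and gene lists were chosen with earlier results of these data known. Values in every library are given for BMI1, genes of the paralog pairs, and called members with a log2 fold change of 0.3 or more in size. Of the other pathway genes, those in a count of 5 or fewer and the 2 largest changes in each direction are named, except for some that are not reported here; others named were chosen after their values were seen.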

Additional observations from a re-analysis of the deposited data

How the results depend on the processing

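BMI1, PCGF1, BCOR and ASXL2 kept their call under every alternative run in which they were tested. Of the 25 called members, 14 kept their call with any 1 library left out. Over all members the lower calls then ran from 10 to 16 (18 with all libraries) and the higher calls from 4 to 7 (7). The ranges were 0 to 1 higher for canonical PRC1, 3 to 5 lower for variant PRC1, 0 to 3 lower and 2 to 4 higher for PRC2, and 1 to 3 lower for PR-DUB. Paralog differences ran from -0.53 to 0.09 for PCGF3/PCGF5, from -0.19 to 0.11 for RYBP/YAF2 and from -0.14 to 0.12 for RBBP4/RBBP7, and the PR-DUB sum from 0.767 to 0.859 times control.

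With no filter on low values canonical PRC1 had 0 higher, PRC2 1 lower and 2 higher, PR-DUB 1 lower, and all members 4 higher. At a mean of at least 5 FPKM canonical PRC1 had 0 higher, variant PRC1 2 lower and 0 higher, PRC2 1 lower and 2 higher, PR-DUB 1 lower, all members 9 lower and 2 higher, and the other pathway genes 8 lower and 2 higher, as fewer genes were tested. With libraries scaled to a total of 1000000 canonical PRC1 had 0 higher, PRC2 2 higher and all members 4 higher, and the PR-DUB sum was 0.751 times control. Upper quartile scaling left PRC2 1 lower. Quantile normalization left canonical PRC1 0 higher and gave RBBP4/RBBP7 -0.01.

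After removal of the trend with GC content and length, variant PRC1 had 3 lower, PRC2 1 lower and 1 higher, PR-DUB 1 lower, all members 10 lower and 3 higher, and the other pathway genes 6 lower. The fold change turned sign for 19 of 38 members and 5 of 27 other pathway genes. Among them were CBX2 (0.16), CBX6 (0.12), SCML1 (-0.29), RNF2 (-0.04), PCGF5 (-0.44), KDM2B (0.11), BCORL1 (0.22), EZH1 (0.08), SUZ12 (-0.13), PHF19 (0.20), EPOP (0.13), JARID2 (0.05), BAP1 (0.05), YY1 (0.01), AUTS2 (0.13) and FOXK1 (0.01). Paralog differences became 0.46 for PCGF3/PCGF5, -0.01 for RBBP4/RBBP7, -0.03 for MTF2/PHF19 and 0.43 for ASXL1/ASXL2. With medians over transcripts canonical PRC1 had 0 higher, variant PRC1 3 lower and 0 higher, PRC2 2 higher, PR-DUB 1 lower and all members 11 lower and 2 higher. The fold change then turned sign for 11 members and 2 other pathway genes, among them CBX6 (0.07), SCML1 (-0.19), PCGF5 (-0.39), BCORL1 (0.19), EED (-0.31), SUZ12 (-0.09), EPOP (0.18) and JARID2 (0.09), with differences of 0.29 for PCGF3/PCGF5 and -0.02 for RBBP4/RBBP7.

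The replicate numbers do not pair the libraries, as same-numbered ones deviated from their group means with r of 0.00374, -0.0791 and -0.0234. With the replicate block canonical PRC1 had 0 higher, PRC2 1 lower and 2 higher, PR-DUB 1 lower and all members 4 higher. The cause of these moves was not tested. Tests on counts were planned only for a count table and were not run. Depth is unknown and limits the lowest members most.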
